A study of Rattus norvegicus with 15 samples.

Results

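The 4 transcripts described here are *Cox4i1*, *Cox4i2* and *Cox8b*, which encode subunits of cytochrome c oxidase (complex IV of the respiratory chain), and *Ndufa4l2*, a paralog of the complex IV subunit gene *Ndufa4*. They were chosen by gene name from the 3 tables of genes that the authors had called between pairs of groups, and are 4 of the 8621 genes in those tables. Their levels and differences were therefore what chose them and are given as a description, without a test. *Cox4i2* and *Ndufa4l2* are listed in all 3 tables, *Cox4i1* and *Cox8b* in those of PCC vs. WT and HYP vs. WT.

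RNA-seq was performed on adrenal medullary tissue of 15 Sprague-Dawley rats, 5 in each of 3 groups, with 1 library per animal. WT rats carried wild-type *Cdkn1b* and were 7 to 9.5 months old. MENX rats, which carry a germline mutation of *Cdkn1b*, the gene of the cell cycle inhibitor p27, had a hyperplastic medulla (HYP) at 4 to 5 months or pheochromocytoma (PCC), a chromaffin cell tumor, at 7 to 9.5 months. No treatment is labelled for any group. All cells of a MENX rat carry the mutation, HYP and WT rats differed in age as well as genotype, and the cortex had been removed by hand, so the tissue was a mixture of cells. Of the PCC libraries, which came from smaller and which from advanced tumors was not used here.

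Complex IV passes electrons from cytochrome c to oxygen, and several of its nuclear-encoded subunits exist as alternative isoforms. COX4, the subunit through which ATP regulates the enzyme, is made from *Cox4i1* in most tissues and from *Cox4i2* in lung and in oxygen-sensing cells such as those of the carotid body. *Ndufa4l2* is a hypoxia-induced transcript whose product lowers respiratory chain activity, and *Cox8b* is the isoform of *Cox8a* found in heart, skeletal muscle and brown fat. *Cox4i2* and *Ndufa4l2* are also known as transcripts of pericytes, the mural cells of small vessels.

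In the coordinates of the deposited tables (rat genome Rn06), *Cox4i1* (ENSRNOG00000017817) lies at chr19:54245950-54252225 on the plus strand and *Cox4i2* (ENSRNOG00000007827) at chr3:148234193-148245416 on the plus strand. *Cox8b* (ENSRNOG00000014656) lies at chr1:213648787-213650247 on the minus strand and *Ndufa4l2* (ENSRNOG00000031851) at chr7:70821957-70824085 on the plus strand. The promoters are shown because these genes differ so widely in direction between the same tissues. They are RefSeq sequences of build GRCr8, from 250 bases before to 50 bases after each gene's start, found for 3 of the 4 genes. They cover chr19:65630133-65630432 (plus strand) for *Cox4i1*, chr1:205408224-205408523 (minus strand) for *Cox8b* and chr7:65241919-65242218 (plus strand) for *Ndufa4l2*. Capitals mark matches on either strand to the core of the hypoxia response element bound by hypoxia-inducible factors (HIF; ACGTG or GCGTG) and to the core bound by ETS family factors (CCGGAA), both written 5′ to 3′.
Cox4i1: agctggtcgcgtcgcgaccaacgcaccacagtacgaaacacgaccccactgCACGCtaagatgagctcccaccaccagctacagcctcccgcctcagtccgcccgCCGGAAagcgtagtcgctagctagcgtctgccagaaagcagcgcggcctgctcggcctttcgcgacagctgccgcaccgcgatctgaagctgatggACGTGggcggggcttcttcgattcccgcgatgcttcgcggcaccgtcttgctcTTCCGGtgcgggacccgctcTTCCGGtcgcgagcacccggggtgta
Cox8b: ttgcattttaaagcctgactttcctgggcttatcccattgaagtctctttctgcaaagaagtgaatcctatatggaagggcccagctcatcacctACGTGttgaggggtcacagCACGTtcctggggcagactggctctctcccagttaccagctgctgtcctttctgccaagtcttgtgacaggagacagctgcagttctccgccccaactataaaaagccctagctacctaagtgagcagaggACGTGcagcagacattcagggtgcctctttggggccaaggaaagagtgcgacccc
Ndufa4l2: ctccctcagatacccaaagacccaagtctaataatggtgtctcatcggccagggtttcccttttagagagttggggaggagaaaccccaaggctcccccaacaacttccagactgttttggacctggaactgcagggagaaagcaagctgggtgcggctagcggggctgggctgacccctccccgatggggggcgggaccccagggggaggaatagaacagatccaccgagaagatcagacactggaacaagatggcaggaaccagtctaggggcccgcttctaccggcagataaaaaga

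The *Cox4i1* window held 2 HIF cores and 3 ETS cores, and its GC content was 66.0%, against a median of 51.7% over all 33469 promoters of the same length. Of all those promoters, 41.6% held at least 1 HIF core and 15.0% at least 1 ETS core, and 1.02% held 3 or more ETS cores. The *Cox8b* window held 3 HIF cores and no ETS core, and 8.15% of promoters held 3 or more HIF cores. A TATA box (TATAAA, gene strand only, in lower case above) began at position -39 of the *Cox8b* promoter, and 8.80% of promoters held one. The *Ndufa4l2* window held neither of the cores shown in capitals, nor a TATA box. None of the 3 windows held the core TGGGAA of the factor RBPJ on either strand, which 25.7% of promoters held. These matches describe the letters of the windows and are not binding sites.

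Between 16315018 and 23831269 reads per library fell on genes, and the range overlapped between groups (medians of 19749571 in WT, 16868712 in HYP and 18753812 in PCC). The tissue label was set beside chromaffin and cortex markers. *Th* and *Dbh*, enzymes of catecholamine synthesis, had a mean of 1204 and 1029 FPKM in WT, where FPKM is a level scaled for transcript length and sequencing depth. The 8 listed chromaffin markers, which leave out *Chga*, *Chgb* and *Pnmt*, summed to between 723 and 4458 FPKM in WT. Cortex transcripts remained in every library. Their sum exceeded that of the 8 chromaffin markers in all WT and HYP libraries and in PCC replicate 5 (12080 against 9249 FPKM). Summed, 9 cortex markers were at 20934 to 37492 FPKM in WT, 10295 to 23956 in HYP and 757 to 12080 in PCC. The groups are compared in pairs, and each group enters 2 of the 3 comparisons, so the comparisons share samples.

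*Cox4i1*, the common COX4 isoform, was highest in WT. It stood at 712, 699, 627, 635 and 468 FPKM in WT replicates 1 to 5, at 477, 321, 400, 509 and 451 in HYP and at 274, 437, 418, 289 and 432 in PCC. Every PCC library was below every WT library, whereas 3 of 5 HYP libraries were, because WT replicate 5 was low, and HYP and PCC overlapped. The mean was 628 ± 97.1 FPKM (WT), 432 ± 73.4 (HYP) and 370 ± 81.2 (PCC; SD, n = 5 each), that is 1.70-fold lower in PCC and 1.46-fold lower in HYP than in WT. In the edgeR fit of the counts the log2 difference was -1.06 (SE 0.18) for PCC vs. WT and -0.72 (SE 0.16) for HYP vs. WT. It was nearer to 0, at -0.56 and -0.26, when the summed reads of the table were used to scale libraries, a choice that moved the median of all listed genes up by 0.50 and 0.46.

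*Cox4i2* had the largest fold difference of means of the 4 isoforms between PCC and either other group, while between HYP and WT that of *Cox8b* was larger. In WT it was at 3.89, 3.92, 3.26, 12.4 and 1.95 FPKM in replicates 1 to 5, in HYP at 35.9, 26.1, 20.04, 25.4 and 22.1, and in PCC at 383, 361, 266, 801 and 171. No group overlapped another, and within WT replicate 4 stood above the other 4 animals. The mean was 5.08 ± 4.17 FPKM (WT), 25.9 ± 6.11 (HYP) and 396 ± 241 (PCC; SD, n = 5 each), a 5.10-fold difference between HYP and WT, 15.3-fold between PCC and HYP and 78.0-fold between PCC and WT. The read counts behind these levels ran from 39 to 232 in WT, 345 to 653 in HYP and 3813 to 15716 in PCC. The log2 differences were 2.17 (SE 0.42), 3.69 (SE 0.39) and 5.995 (SE 0.63) in the same order. Ordered by the signed log2 difference from the highest down, *Cox4i2* ranked 39 of 7001 genes in PCC vs. WT, 33 of 3148 in PCC vs. HYP and 218 of 4108 in HYP vs. WT.

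*Ndufa4l2* was ordered in the same way as *Cox4i2*, from a higher start. It was at 60.1, 93.3, 60.1, 57.7 and 8.21 FPKM in WT replicates 1 to 5, at 293, 223, 152, 247 and 258 in HYP and at 447, 941, 823, 1839 and 609 in PCC. The groups did not overlap, replicate 5 was the lowest WT library and replicate 4 the highest PCC library. The mean was 55.9 ± 30.5 FPKM (WT), 235 ± 52.4 (HYP) and 932 ± 542 (PCC; SD, n = 5 each). That was 4.20-fold higher in HYP than in WT, 3.97-fold higher in PCC than in HYP and 16.7-fold higher in PCC than in WT, with log2 differences of 1.94 (SE 0.41), 1.72 (SE 0.32) and 3.77 (SE 0.56).

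*Cox8b*, the muscle and brown fat isoform, was highest in WT and scattered widely there. It was at 76.8, 53.5, 23.8, 18.4 and 8.42 FPKM in WT replicates 1 to 5, at 4.55, 4.09, 3.65, 5.26 and 3.66 in HYP and at 0.395, 0.542, 1.34, 11.3 and 1.93 in PCC. All HYP libraries were below all WT libraries. In PCC, 4 of 5 were, and replicate 4 lay above WT replicate 5 and above all HYP libraries. Counts were low in PCC, at 3, 3, 8, 67 and 13 reads, so the level there has a large counting error. The mean was 36.2 ± 28.3 FPKM (WT), 4.24 ± 0.680 (HYP) and 3.10 ± 4.62 (PCC; SD, n = 5 each), 8.53-fold lower in HYP and 11.7-fold lower in PCC than in WT. The log2 difference was -3.22 (SE 0.49) for HYP vs. WT and -3.84 (SE 0.90) for PCC vs. WT, and the latter was -5.34 without PCC replicate 4.

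**Figure D1:**
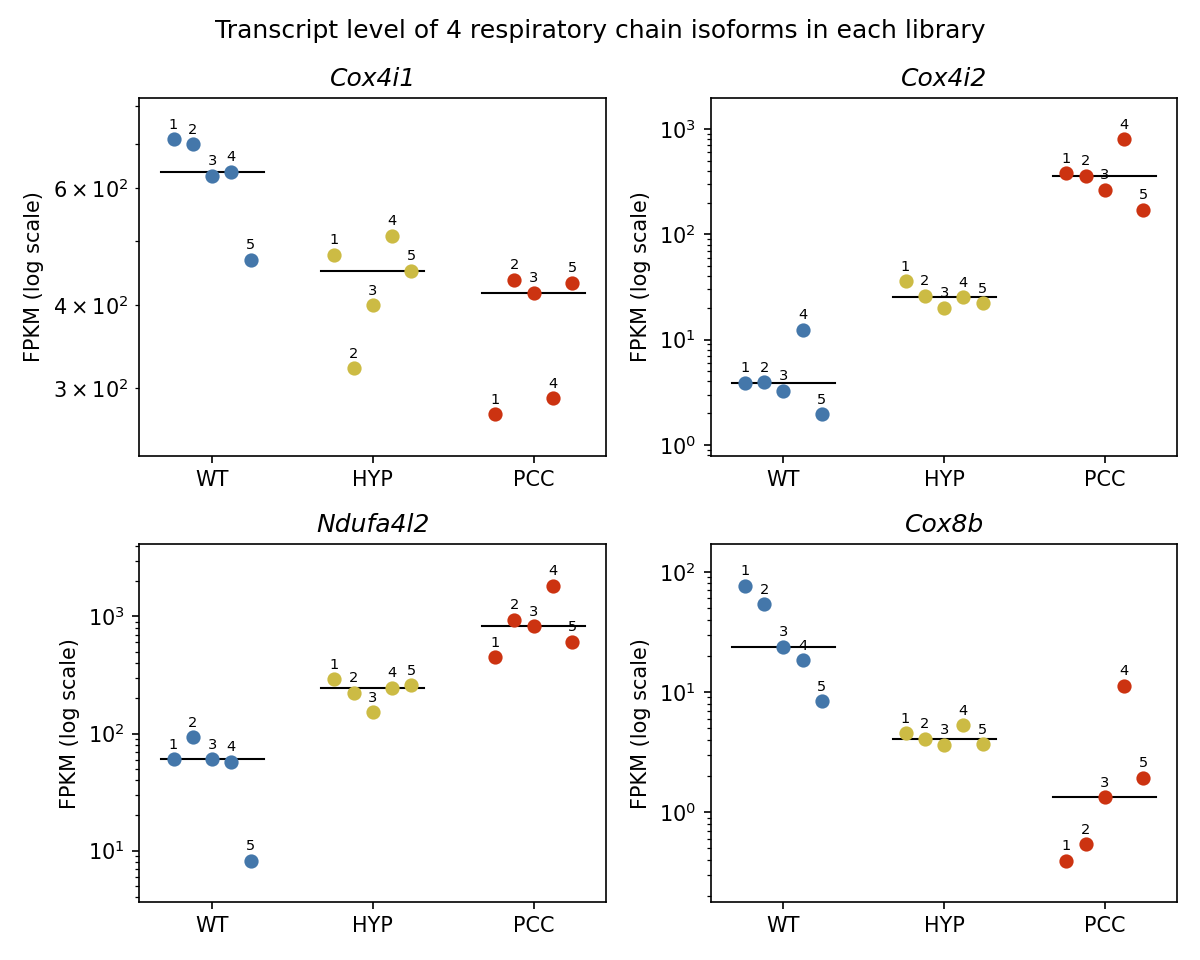
FPKM of each of the 4 isoforms (log scale) in the 5 WT, 5 HYP and 5 PCC libraries. Numbers beside the points are replicate numbers and lines are group medians; *Cox4i2* and *Ndufa4l2* are separated between all 3 groups, *Cox4i1* in HYP and PCC overlaps, and PCC replicate 4 is the highest PCC library for *Cox4i2*, *Ndufa4l2* and *Cox8b*.

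Counted over the members, the groups did not overlap for 3 of 4 in PCC vs. WT (*Cox4i1*, *Cox4i2*, *Ndufa4l2*), where 60.5% of all genes tested did not overlap. The same was true of 3 of 4 in HYP vs. WT (*Cox4i2*, *Ndufa4l2*, *Cox8b*), against 47.8% of genes tested, and of the 2 members listed in PCC vs. HYP, against 48.6%. Since the tables hold genes chosen for these differences, nothing is read from those counts.

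The order of the members by level, which FPKM makes comparable per length, changed between the groups. In WT *Cox4i1* came first, followed by *Ndufa4l2* and *Cox8b*, whose ranges overlapped, and *Cox4i2*, whose highest library overlapped the lowest ones of both. In HYP the order was *Cox4i1*, *Ndufa4l2*, *Cox4i2* and *Cox8b*, and no neighbours overlapped. In PCC *Ndufa4l2* came first, but its range overlapped that of *Cox4i2*, which in turn overlapped *Cox4i1*, and *Cox8b* was far below. Among the 7683 genes of the PCC vs. WT table, the median rank by FPKM was 939 in WT and 30 in PCC for *Ndufa4l2*, and 4726 and 73 for *Cox4i2*. It was 54 and 66 for *Cox4i1* and 2044 and 6335 for *Cox8b*.

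A ratio of 2 isoforms within a library does not depend on how libraries are scaled to each other. The ratio of *Cox4i2* to *Cox4i1*, in counts per kilobase, was 0.00546, 0.00560, 0.00521, 0.0195 and 0.00416 in WT replicates 1 to 5, and 0.0754, 0.0811, 0.0501, 0.0498 and 0.0491 in HYP. In PCC it was 1.40, 0.826, 0.638, 2.77 and 0.395, so that *Cox4i2* exceeded *Cox4i1* in replicates 1 and 4. No group overlapped another, and the medians differed 151-fold between PCC and WT. As a share of the COX4 transcripts, *Cox4i2* had a median of 0.543% in WT (0.414 to 1.92%), 4.77% in HYP (4.68 to 7.50%) and 45.2% in PCC (28.3 to 73.5%).

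The sum of both COX4 isoforms varied far less than their proportion. It was 633 ± 98.2 FPKM (WT), 458 ± 75.4 (HYP) and 766 ± 194 (PCC; SD, n = 5 each). The HYP sum ran from 348 to 535 FPKM and overlapped WT (470 to 716), which overlapped PCC (603 to 1090), while every PCC library lay above every HYP library. In HYP, where *Cox4i2* added a mean of 25.9 FPKM, the sum was lower than in WT on average.

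**Figure D2:**
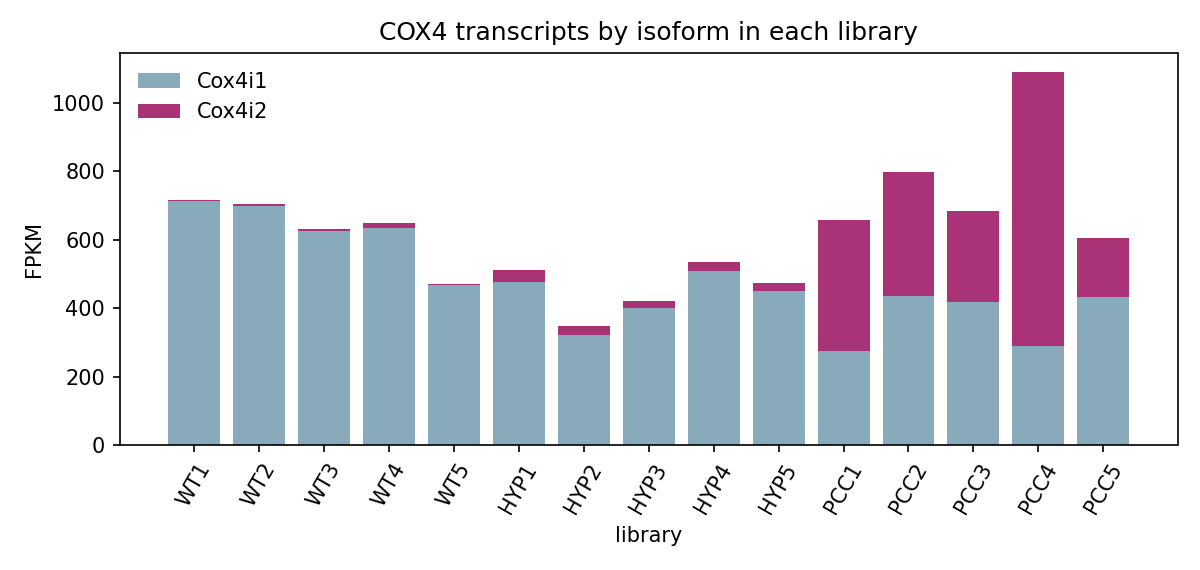
FPKM of *Cox4i1* and *Cox4i2* stacked for each of the 15 libraries. *Cox4i2* is barely visible in WT (0.414 to 1.92% of the sum), small in HYP and 28.3 to 73.5% of the sum in PCC.

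The ratio of *Ndufa4l2* to *Cox4i1* put the first on the scale of a core subunit. It was 0.0844, 0.133, 0.0960, 0.0908 and 0.0175 in WT, 0.615, 0.695, 0.381, 0.484 and 0.573 in HYP and 1.63, 2.16, 1.97, 6.36 and 1.41 in PCC. The groups did not overlap, and every PCC library held more *Ndufa4l2* than *Cox4i1* per kilobase. *Ndufa4*, the paralog that is a structural subunit of complex IV, is not listed in any of the 3 tables, so no ratio to it was formed.

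*Cox8b* was a minor isoform beside *Cox8a*, the general one, in every library. The ratio of *Cox8b* to *Cox8a* was 0.208, 0.130, 0.0567, 0.0453 and 0.0289 in WT, 0.0141, 0.0186, 0.0163, 0.0157 and 0.0110 in HYP and 0.00187, 0.00171, 0.00412, 0.0283 and 0.00530 in PCC. HYP lay below WT throughout, and PCC replicate 4 lay just below the lowest WT library. *Cox8a* itself was at 380 ± 52.8 FPKM (WT), 287 ± 59.6 (HYP) and 323 ± 70.7 (PCC; SD, n = 5 each), and its groups overlapped.

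**Figure D3:**
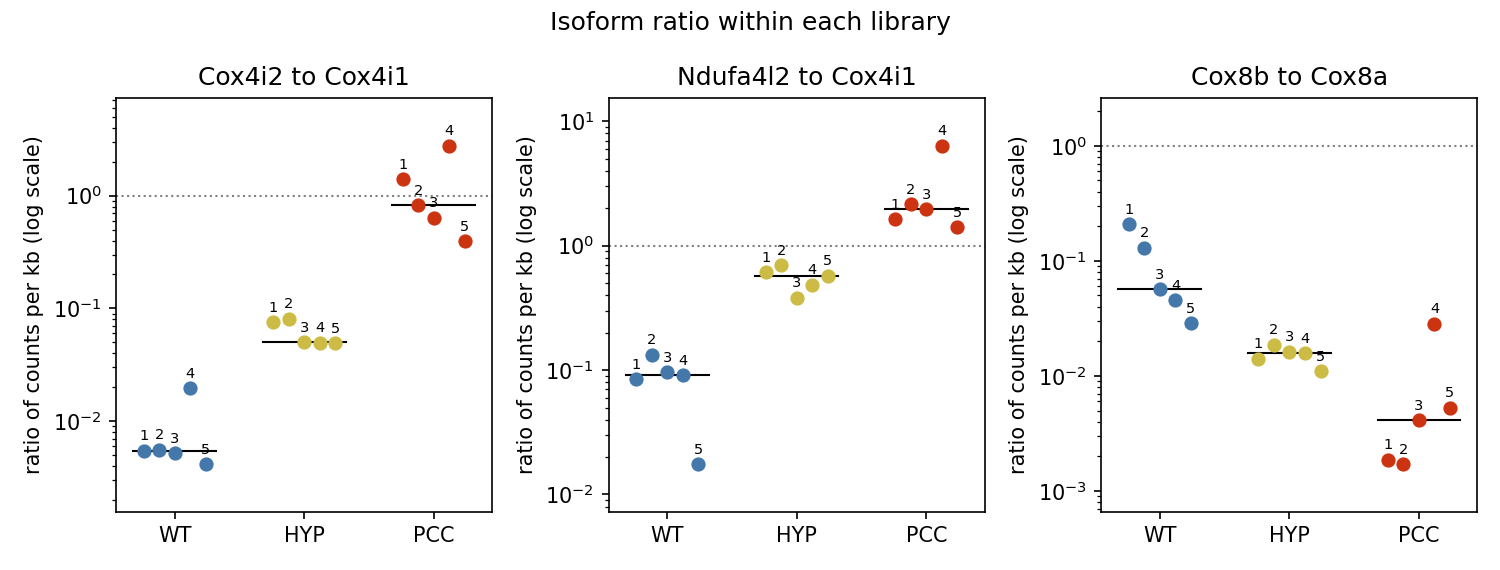
Ratio of counts per kilobase (log scale) of *Cox4i2* to *Cox4i1*, *Ndufa4l2* to *Cox4i1* and *Cox8b* to *Cox8a* in each library, with group medians as lines, replicate numbers beside the points and a dotted line at a ratio of 1. The first 2 ratios are separated between all groups and reach 2.77 and 6.36 in PCC replicate 4, and the third is highest in WT.

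The other genes of complex IV gave the setting for these 4. They were tested with edgeR's quasi-likelihood test and called at a Benjamini-Hochberg adjusted *p* under 0.05, with genes outside the tables counted as further tests. By this rule 83.8% of 7001 genes tested were called in PCC vs. WT (45.9% higher and 37.8% lower), 68.3% of 4108 in HYP vs. WT (37.9% higher and 30.4% lower) and 39.0% of 3148 in PCC vs. HYP (19.7% higher and 19.3% lower). Of 12 paralogous isoform genes of complex IV, 4 were listed, under 5 gene IDs since *Cox6b1* has 2, between which reads of near-identical copies may be split. Of those 5, 4 were called lower and none higher both in PCC vs. WT and in HYP vs. WT, with a median log2 difference of -0.54 and -0.59, against 0.44 and -0.37 over all genes tested.

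*Cox6a1*, a nuclear-encoded subunit with a muscle paralog, fell by 0.83 (SE 0.15) on the log2 scale in PCC vs. WT and by 0.65 (SE 0.16) in HYP vs. WT. *Cox8a* fell by 0.54 (SE 0.16) and 0.59 (SE 0.16), so the partner of *Cox8b* was lower too, by far less. The call of *Cox8a* was lost without PCC replicate 2 or 3 or WT replicate 3 or 4 in the first comparison (highest edgeR adjusted *p* 0.0640) and without HYP replicate 2, 3 or 5 or WT replicate 2, 3 or 4 in the second (0.0783). *Cox7a2l*, a factor of supercomplex assembly, was at -0.32 (SE 0.15) and -0.25 (SE 0.11) and was not called. The muscle paralogs *Cox6a2* and *Cox7a1* and the testis paralogs *Cox6b2*, *Cox7b2* and *Cox8c* are not listed in the tables.

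Of 7 other subunits of complex IV, 4 were listed in PCC vs. WT, of which 3 were called lower and none higher (median -0.73). The 2 listed in HYP vs. WT were both called lower (median -0.61). *Cox5a*, a subunit on the matrix side of the complex, fell by 0.90 (SE 0.20) in PCC and 0.75 (SE 0.15) in HYP relative to WT, and the mitochondrially encoded catalytic subunit *Mt-co1* was at -0.9998 (SE 0.497) in PCC vs. WT without being called. Of 24 assembly factors, 8 were listed in PCC vs. WT, with 4 called lower and none higher (median -0.60), and 5 in HYP vs. WT, with 2 called lower and none higher (median -0.52). *Cmc2* and *Cox16*, both assembly factors, fell by 1.08 (SE 0.20) and 1.00 (SE 0.24) in PCC vs. WT.

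These counts were sensitive to single libraries, although *Cox6a1*, *Cox5a*, *Cmc2* and *Cox16* kept the calls given above with any 1 left out. Only 2 paralogs were called lower in PCC vs. WT without PCC replicate 2 or 3 or WT replicate 3 or 4, and in HYP vs. WT without HYP replicate 2 or 5 or WT replicate 2, 3 or 4. For the other subunits 1 was called in PCC vs. WT without PCC replicate 2, 3 or 5 or WT replicate 2, 3 or 4, and 1 in HYP vs. WT without HYP replicate 2, 4 or 5 or WT replicate 1, 2 or 3. The assembly factors called in HYP vs. WT numbered 1 without HYP replicate 1, 3 or 4 or WT replicate 2 or 5, and 0 without any other library, with all 5 lower at an unadjusted *p* under 0.05 with all libraries and 3 called by DESeq2. The directions depended on the scaling. With the summed reads of the table as the scale, none of the paralogs or other subunits was called in either comparison with WT, 1 paralog in each and 1 other subunit in PCC vs. WT had a difference above 0, and 1 assembly factor was called higher in PCC vs. WT and none lower. Under DESeq2 and under the authors' size factors every paralog and subunit listed stayed below 0. None of the genes of these 3 lists was listed in PCC vs. HYP. The log2 difference of *Cox4i1* lay within the range of these paralogs and subunits in HYP vs. WT and just below it in PCC vs. WT, whereas those of *Cox4i2*, *Ndufa4l2* and *Cox8b* lay outside their whole range.

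**Figure D4:**
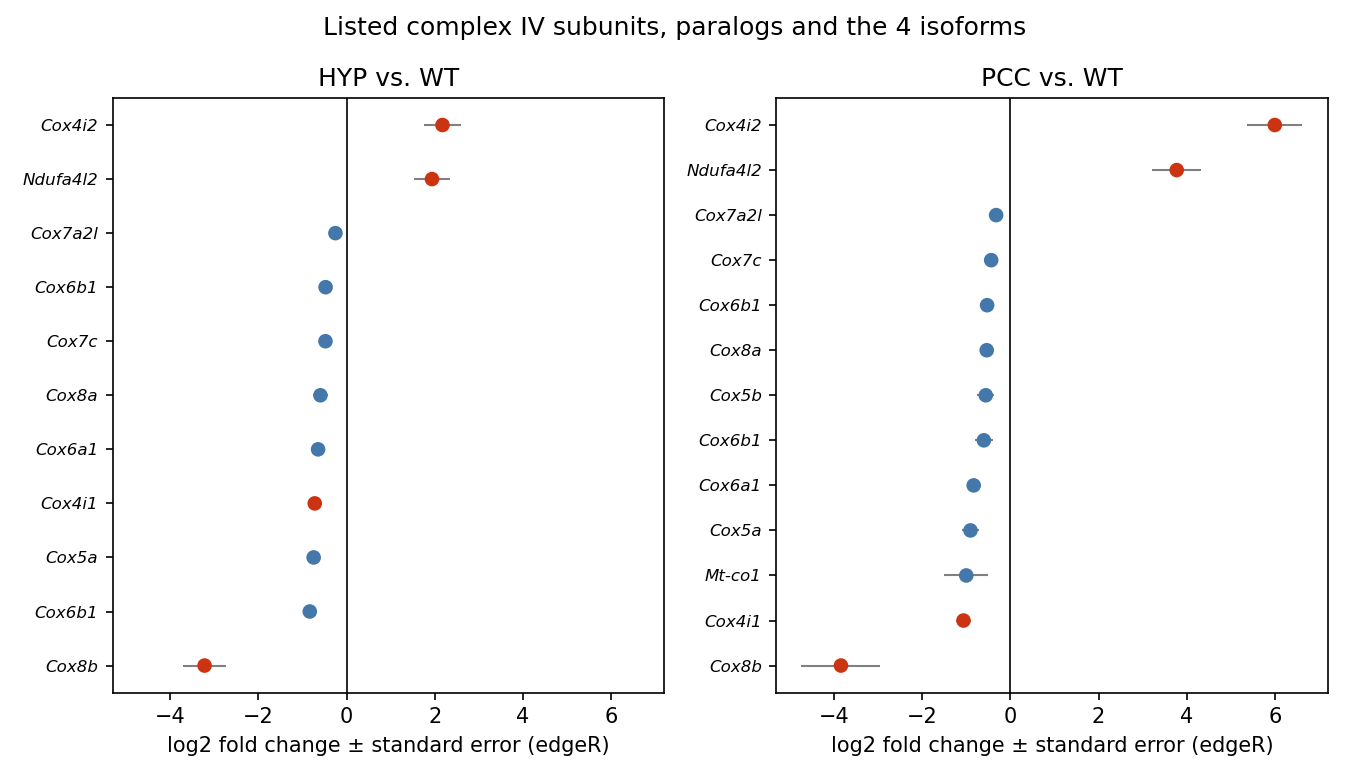
Log2 difference with its standard error (edgeR) for HYP vs. WT and PCC vs. WT of the 4 isoforms (red) and the listed complex IV paralogs and other subunits (blue), sorted by value; *Cox6b1* appears once for each of its 2 gene IDs. All blue points lie below 0, and with the summed reads of the table as the scale they shift up by a median over all genes of 0.46 (HYP vs. WT) and 0.50 (PCC vs. WT), so that 1 or 2 of them pass 0.

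Regulators known to act on the COX4 isoforms or on HIF were followed by a list of 7, of which 4 were listed. *Epas1* encodes HIF-2α, the subunit through which oxygen-sensing cells express *Cox4i2*. It was at 90.7 ± 38.5 FPKM (WT), 434 ± 121 (HYP) and 1376 ± 541 (PCC; SD, n = 5 each), and the groups did not overlap, with 33.3 to 137, 325 to 624 and 886 to 2221 FPKM. It rose by a log2 difference of 3.64 (SE 0.40) in PCC vs. WT, 2.09 (SE 0.28) in HYP vs. WT and 1.44 (SE 0.29) in PCC vs. HYP (edgeR adjusted *p* of 0.000161, 0.000965 and 0.0169). The calls against WT held with any 1 library left out, and that of PCC vs. HYP was lost without HYP replicate 3 or 4 (highest adjusted *p* 0.0607 with edgeR). PCC replicate 4 was the highest library for *Epas1*, as it was for *Cox4i2* and *Ndufa4l2*, and WT replicate 5 the lowest.

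*Cxxc5*, a factor that acts on the *Cox4i2* promoter, rose from 26.2 ± 8.34 FPKM (WT) to 48.3 ± 6.96 (HYP) and 63.8 ± 13.3 (PCC; SD, n = 5 each). Its log2 difference from WT was 0.72 (SE 0.19) in HYP and 1.01 (SE 0.23) in PCC, and the first call was lost without WT replicate 4 (edgeR adjusted *p* 0.0591). *Lonp1*, the mitochondrial protease that degrades COX4-1 in hypoxia, was lower in PCC than in WT by a log2 difference of -1.61 (SE 0.33), and was at -0.73 (SE 0.27) in HYP vs. WT without being called. *Arnt*, the partner of the HIF subunits, was at -0.60 (SE 0.18) in PCC vs. HYP without being called. *Hif1a*, *Rbpj* and *Chchd2* are not listed in the tables.

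Of 26 further HIF target genes, 14 were listed in PCC vs. WT, of which 5 were called higher and 7 lower (median 0.03), so the list did not move in 1 direction. In HYP vs. WT, 12 were listed, with 1 called higher and 6 lower (median -0.59), and in PCC vs. HYP, 10 were listed, with 3 called higher and none lower by edgeR (3 were lower at an unadjusted *p* under 0.05, and 3 by DESeq2; median 1.03, against 0.43 over all genes tested). With 1 library left out, the targets called higher in PCC vs. WT fell to 3 without PCC replicate 2, 3 or 4 or WT replicate 1, 3 or 4. In HYP vs. WT those called lower fell to 2 without HYP replicate 4 or 5 and to 3 without WT replicate 3, and 2 were called higher without WT replicate 5. In PCC vs. HYP none was called higher without HYP replicate 3 or 4 and 1 without HYP replicate 5, and 3 were called lower without PCC replicate 5. *Egln3*, a prolyl hydroxylase that marks HIF for degradation, was higher in PCC than in WT by 3.95 (SE 0.69) and than in HYP by 2.91 (SE 0.64) on the log2 scale. Its level was low, at 0.224 to 0.561 FPKM in WT and 0.261 to 0.961 in HYP. In PCC it ran from 1.01 in replicate 5 to 17.1 in replicate 4. Against HYP, the call of *Egln3* was lost without HYP replicate 2, 3, 4 or 5 (highest edgeR adjusted *p* 0.0769). *Ddit4*, a stress-induced inhibitor of mTORC1, was lower than in WT by a log2 difference of -2.08 (SE 0.57) in PCC and -2.20 (SE 0.47) in HYP, and *Hk2*, a hexokinase, by -1.69 (SE 0.33) in PCC. With the summed reads of the table as the scale, 7 targets were called higher and 3 lower in PCC vs. WT.

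Markers of cell types moved with the members and are given beside them. In bulk tissue, fewer cells of a type and less RNA per cell cannot be told apart. The level of a list in a library is the median over its genes, among those with values in all libraries, of FPKM divided by the mean of WT. Chromaffin markers (8 of 11 listed) had a level of 1.00 ± 0.505 (WT), 2.37 ± 0.438 (HYP) and 4.98 ± 0.876 (PCC; SD, n = 5 each), and summed to 723 to 4458, 4887 to 7466 and 9249 to 16441 FPKM. Of the listed ones, 8 of 8 were called higher in PCC vs. WT, 4 of 5 in HYP vs. WT and 2 of 7 in PCC vs. HYP, and none lower. In HYP vs. WT 2 were called without HYP replicate 2 or 5 or WT replicate 1, 3 or 4, and in PCC vs. HYP 1 without HYP replicate 3 or 4. All 7 were higher in PCC vs. HYP at an unadjusted *p* under 0.05 in edgeR, and DESeq2 called 4. *Chga*, *Chgb* and *Pnmt* are not listed in the tables, so the level and these counts rest only on genes called as changed. WT replicate 5, the lowest WT library for all 4 members, had the lowest chromaffin level, 0.242.

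Mural cell markers had a level of 0.969 ± 0.449 (WT), 2.11 ± 0.739 (HYP) and 7.95 ± 3.81 (PCC; SD, n = 5 each) over the 6 of 14 genes with values in all libraries. Their summed level was 34.6 to 73.5, 114 to 210 and 839 to 3828 FPKM, and *Higd1b* was at 0 in 1 WT library. Of the listed ones, 6 of 8 were called higher and 1 lower in PCC vs. WT, 4 of 5 higher and 1 lower in HYP vs. WT, and 2 of 5 higher in PCC vs. HYP. Those called higher in HYP vs. WT numbered 1 without HYP replicate 2 or 5 or WT replicate 1 or 3 and 2 without HYP replicate 4 or WT replicate 4, and in PCC vs. HYP 1 without HYP replicate 3, 4 or 5 or PCC replicate 2 or 3. *Rgs5*, a pericyte marker, made up most of the sum and rose by a log2 difference of 5.51 (SE 0.45) in PCC vs. WT, while *Kcnj8*, another pericyte marker, fell by 1.04 (SE 0.35) in PCC vs. WT and by 1.20 (SE 0.26) in HYP vs. WT. The call in HYP vs. WT held in 10 of 10 fits with 1 library left out. That in PCC vs. WT was lost without PCC replicate 2, 3, 4 or 5 or WT replicate 1, 2 or 4, and in both comparisons *Kcnj8* was called neither lower nor higher with the summed reads of the table as the scale. The pericyte markers *Abcc9*, *Des* and *Mcam* are not listed in the tables.

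Divided by the mural level of its library, *Cox4i2* had a mean of 1.02 in WT (0.506 to 1.90), 2.67 in HYP (1.68 to 3.92) and 11.7 in PCC (4.75 to 23.8), in units of the WT mean. *Ndufa4l2* on the same scale had a mean of 1.02 (0.322 to 1.81), 2.14 (1.31 to 2.71) and 2.22 (1.34 to 3.35). PCC replicate 1 had the lowest mural level of the PCC libraries, 3.17, and the second highest *Cox4i2*. Its summed mural FPKM was not the lowest, at 1628 against 1131 in PCC replicate 2 and 839 in PCC replicate 5. Divided by the chromaffin level instead, *Cox4i2* had means of 1.23 (0.488 to 2.85), 2.19 (1.4997 to 2.95) and 14.9 (8.73 to 26.7), and *Ndufa4l2* 0.950 (0.606 to 1.20), 1.77 (1.55 to 2.18) and 3.30 (1.39 to 5.58). On each of these scales *Cox4i2* in PCC lay above all HYP and WT libraries, whereas *Ndufa4l2* in PCC overlapped HYP. For the mural scale this rests on a median over 6 genes. *Rgs5*, most of the summed mural FPKM, had means of 32.5 (WT), 138 (HYP) and 1823 FPKM (PCC). Those of *Cox4i2* were 5.08, 25.9 and 396 FPKM, a rise of similar size. No ratio of *Cox4i2* to *Rgs5* or to the summed mural FPKM was formed. The division was chosen after the data were seen, and the marker levels rest on listed genes only. The part of each cell type in the members' levels was not tested.

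Cortex markers, of which 9 of 15 had values in all libraries, had a level of 0.985 ± 0.250 (WT), 0.560 ± 0.154 (HYP) and 0.215 ± 0.166 (PCC; SD, n = 5 each). Of the listed ones, 8 of 12 were called lower in PCC vs. WT, 4 of 8 in HYP vs. WT and none of 6 in PCC vs. HYP, and none higher. Of those 6, all were lower at an unadjusted *p* under 0.05 in edgeR, and DESeq2 called 5 lower. Without 1 library, 7 were called in HYP vs. WT without HYP replicate 3, and in PCC vs. HYP 1 without PCC replicate 4 and 2 without PCC replicate 5. PCC replicate 4 had the lowest cortex level, 0.0295, and the highest level of 3 of the 4 members in PCC, and WT replicate 4, with the highest *Cox4i2* in WT, had the highest cortex level, 1.31. Endothelial markers (8 of 14 used) had a level of 1.00 ± 0.146 (WT), 0.721 ± 0.0610 (HYP) and 0.548 ± 0.215 (PCC; SD, n = 5 each), and summed to 154 to 224, 119 to 159 and 59.8 to 149 FPKM. Of the listed ones, 6 of 9 were called lower and 1 higher in PCC vs. WT, 6 of 7 lower in HYP vs. WT and none of 3 in PCC vs. HYP. In HYP vs. WT 3 were called without HYP replicate 5 or WT replicate 1 or 2. Of the 3 in PCC vs. HYP, 1 was higher and 2 were lower at an unadjusted *p* under 0.05 in edgeR, and DESeq2 called 1 higher and 2 lower, as did edgeR without PCC replicate 5, while 1 was called higher without PCC replicate 4. Their part in the members' levels was not tested.

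**Figure D5:**
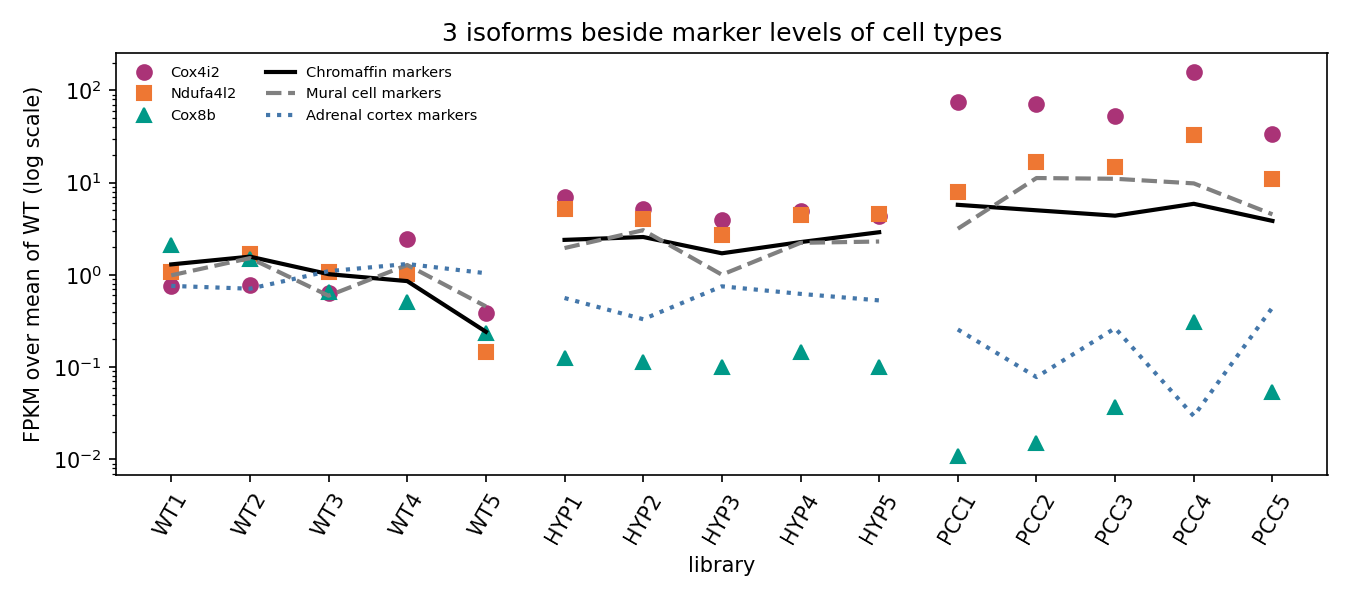
FPKM of *Cox4i2*, *Ndufa4l2* and *Cox8b* divided by their WT mean (points, log scale) in each library, with the levels of chromaffin, mural and cortex markers on the same scale (lines, joined within a group only to guide the eye). *Cox4i2* in PCC lies above each marker level drawn, *Ndufa4l2* in PCC as well, and *Cox8b* below the cortex level in HYP. The levels are medians over a list, and single markers can differ more. The mural marker *Rgs5* had a mean of 32.5 FPKM (WT), 138 (HYP) and 1823 (PCC).

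For *Cox8b*, the markers of the tissues known to express it were few in the tables. Of 11 adipocyte markers 2 were listed, *Cidea* and *Pparg*, and neither the brown fat marker *Ucp1* nor *Adipoq* was. *Cidea*, a lipid droplet protein of brown fat, had 76.1, 78.3, 114, 92.6 and 24.5 FPKM in WT replicates 1 to 5 and 32.6, 8.45, 36.7, 1.48 and 15.1 in PCC, and fell by 2.26 (SE 0.68) on the log2 scale, a call lost without PCC replicate 2 or 5 or WT replicate 3 or 4 (highest edgeR adjusted *p* 0.0617). The order of *Cidea* was not that of *Cox8b*: PCC replicate 4 had the highest *Cox8b* and the lowest *Cidea* of the PCC libraries. *Pparg*, a regulator of fat cell formation, was at -1.14 (SE 0.40) in PCC and -0.87 (SE 0.33) in HYP against WT without being called. Of 12 striated muscle markers, 5 were listed in PCC vs. WT, with 2 called higher and 2 lower, 3 in HYP vs. WT, with none called by edgeR (1 higher and 2 lower at an unadjusted *p* under 0.05, 1 higher and 1 lower by DESeq2; 1 was called higher without WT replicate 2 or 5 and 1 lower without HYP replicate 1 or 3 or WT replicate 3 or 5), and 1 in PCC vs. HYP, *Actc1*, called higher, a call lost without HYP replicate 3, 4 or 5. Of the 2 lower in PCC vs. WT, 1 was called without PCC replicate 2 or 3 or WT replicate 1 or 4. *Actc1*, cardiac actin, was higher in PCC than in WT by 3.09 (SE 0.62), and *Casq1*, a calcium-binding protein of skeletal muscle, fell by 1.498 (SE 0.30). The part of fat or muscle tissue in the *Cox8b* level was not tested.

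Profiles were compared as log2 CPM, which are counts scaled between libraries by TMM over the genes with values in all 15 libraries. Each gene was centred on its mean. Genes with profiles most like each member were named by the root mean square difference over the libraries, among 4687 genes. For *Cox4i2* they were *Sparcl1* (0.46), *Parm1* (0.55), *Cpxm2* (0.57), *Ret* (0.57) and *Adora2a* (0.58). *Sparcl1*, a matrix glycoprotein, had a mean of 3.39 FPKM in WT, 18.5 in HYP and 308 in PCC. *Adora2a*, an adenosine receptor, had 2.69, 9.59 and 341. For *Ndufa4l2* they were *Cd24* (0.32), *C1ql1* (0.39), *Mapk8ip2* (0.39), *Stk32c* (0.39) and *Ddc* (0.41), the last an enzyme of catecholamine synthesis that is also in the chromaffin list.

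The nearest profiles to *Cox4i1*, which varied least of the 4 isoforms, were *Dnlz* (0.11) and *Tmem208* (0.13) first, then *Fbxo6* (0.15), *Bloc1s1* (0.16) and *Atg101* (0.17). *Dnlz*, which encodes a mitochondrial chaperone partner, had 55.0, 34.5 and 30.8 FPKM in WT, HYP and PCC. Those nearest to *Cox8b* were *Gls2* (0.52), *Ackr3* (0.56), *Man1b1* (0.66), *Tlcd2* (0.67) and *Hps4* (0.68). *Gls2*, a mitochondrial glutaminase, had 55.0, 12.0 and 6.07 FPKM, and *Ackr3*, an atypical chemokine receptor, 47.6, 12.2 and 6.55. A smaller value means a closer profile, and the value grows with a member's own spread: the median over all genes was 0.89 for *Cox4i1*, 2.38 for *Cox4i2*, 1.81 for *Cox8b* and 1.64 for *Ndufa4l2*. The libraries share depth and tissue makeup across genes.

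The listed genes next to the members on the chromosome did not share the large differences of *Cox4i2*, *Ndufa4l2* and *Cox8b*. *Emc8*, which starts 94 bases before *Cox4i1* on the opposite strand and encodes a subunit of the endoplasmic reticulum membrane complex, fell by 0.84 (SE 0.21) on the log2 scale in PCC vs. WT. *Id1*, 17474 bases before *Cox4i2*, fell by 0.83 (SE 0.25) in HYP vs. WT and was at -0.59 (SE 0.25) in PCC vs. WT without being called. *AABR07054332.1*, 37792 bases after *Cox4i2*, was at -0.43 (SE 0.18) in PCC vs. WT without being called. *Shmt2*, a mitochondrial enzyme of serine metabolism that lies 629 bases after *Ndufa4l2* on the opposite strand, rose by 1.20 (SE 0.29) in PCC vs. WT. *Psmd13*, a proteasome subunit gene 298 bases from *Cox8b* on the opposite strand, fell by 0.50 (SE 0.13) in HYP vs. WT, and *Athl1*, 87540 bases on the other side, rose by 1.74 (SE 0.25) in PCC vs. WT. The library kit does not mark strand, so reads of genes that overlap on opposite strands could not be separated, although none of these neighbours overlaps a member in the tables' coordinates.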

How the data were processed

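RNA-seq libraries of 15 rats were analysed, grouped by the labels. Per the labels and the study's methods, mRNA was selected with poly-T beads, libraries were made with a kit that does not mark strand, and reads were mapped to Rn06 with HISAT2 2.0.5. Reads were counted with featureCounts 1.5.0-p3, as the submitters' processing notes name it. For each pair of groups the authors deposited a table of the genes they had called with DESeq2. Each holds raw read counts per gene, FPKM as computed by the authors, and normalized signal values, which the authors made by dividing counts by a size factor per sample. The authors' log2 fold changes, p-values and adjusted p-values in those tables were not used. The number of per-sample columns that matched no sample was 0.

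Counts were fitted with edgeR 4.0.16 (limma 3.58.1, R 4.3.3), 1 fit per table, after TMM scaling and filterByExpr, with the quasi-likelihood test. Adjusted *p*-values are Benjamini-Hochberg values with 20000 as the number of tests, since unlisted genes are assumed to rank last. The threshold for a call was an adjusted *p* under 0.05. On simulated counts for PCC vs. WT, 183 of 184 changed genes were recovered with 3 false calls. Few genes were changed there, equally up and down, unlike in the data, so that run checked the code and not the calls. The standard error of a log2 difference comes from the same fit. Folds of means are of FPKM, ratios of isoforms are of counts per kilobase of the tables' gene length without a pseudocount, and log2 CPM used a pseudocount of 0.5. For likeness, genes needed a mean of at least 1 CPM.

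The members and all lists were chosen with earlier results of these data known. The lists are complex IV paralogs, other complex IV subunits, complex IV assembly factors, HIF targets, regulators of the COX4 isoforms, and markers of mural, endothelial, adipocyte, striated muscle, adrenal cortex and chromaffin cells. Genes named are the members, 2 to 4 genes of each list with the largest differences and paralogs of the members, the nearest listed gene on each side within 100 kb, and the 5 genes with the most similar profile. *Epas1*, *Cxxc5*, *Cidea*, *Kcnj8*, *Th* and *Dbh* were named for their role after their values were seen, as were single genes given without a call. Since the tables hold called genes only, no set was tested against all genes. Promoter sequences are from RefSeq (GRCr8), matched by symbol, and protein sequences were not used here. Alternatives were DESeq2 1.42.0, other scalings, no filter, a replicate block, another number of tests and each replicate left out. Other steps used Python 3.11.15 (numpy 2.4.6, pandas 2.3.3, matplotlib 3.10.9).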

Additional observations from a re-analysis of the deposited data

Results flagged for a closer look

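In a group of 5, a library was singled out when its gap to the nearest other library was large against the whole range of the group (Dixon's criterion at 95%). Of 21 groups checked, 5 were singled out. The criterion flags about 1 in 20 groups of independent, normally distributed values. Here the ratios reuse the members' own counts, so nothing is read from the number flagged. All 5 concern replicate 4 of WT or of PCC. *Cox4i2* in WT replicate 4 was 12.4 FPKM against 1.95 to 3.92 in the other WT libraries, and its ratio to *Cox4i1* there was 0.0195 against 0.00416 to 0.00560. *Cox8b* in PCC replicate 4 was 11.3 FPKM against 0.395 to 1.93, and its ratio to *Cox8a* was 0.0283 against 0.00171 to 0.00530. The ratio of *Ndufa4l2* to *Cox4i1* in PCC replicate 4 was 6.36 against 1.41 to 2.16.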

How the results depend on the processing

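The direction of each member's difference held under every alternative fit. For the differences from WT it also held after division by the mural or chromaffin marker level, but not after division by the cortex level. Between PCC and HYP, *Ndufa4l2* divided by the mural level hardly differed. Its means were 2.14 in HYP (1.31 to 2.71) and 2.22 in PCC (1.34 to 3.35). Divided by the cortex level, *Cox4i1* had medians of 0.908 (WT), 1.35 (HYP) and 2.51 (PCC), in units of the WT mean. *Cox8b* then had medians of 0.599, 0.224 and 0.139, but means of 1.22, 0.225 and 2.21. Scaling to the listed total moved *Cox4i1* to -0.56 in PCC vs. WT and -0.26 in HYP vs. WT. Leaving out 1 replicate gave 5.61 to 6.65 for *Cox4i2*, 3.39 to 4.01 for *Ndufa4l2*, -1.12 to -0.97 for *Cox4i1* and -5.34 (without PCC replicate 4) to -3.39 for *Cox8b* in PCC vs. WT. In HYP vs. WT the ranges were 1.99 to 2.82, 1.66 to 2.17, -0.78 to -0.62 and -3.46 to -2.78, and in PCC vs. HYP 3.33 to 3.88 for *Cox4i2* and 1.35 to 1.85 for *Ndufa4l2*. Alternatives chosen after seeing the data divided each library by a marker level. By the mural level, differences of mean log2 FPKM became -3.78 (*Cox4i1*), 3.39 (*Cox4i2*), -7.25 (*Cox8b*) and 1.24 (*Ndufa4l2*) in PCC vs. WT and -1.72 (*Cox4i1*) in HYP vs. WT. By the chromaffin level they became -3.32, 3.86, -6.78 and 1.70 in PCC vs. WT in the same order, and -2.01 (*Cox4i1*), 1.15 (*Cox4i2*) and 0.93 (*Ndufa4l2*) in HYP vs. WT.

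Genes called in PCC vs. WT numbered 4919 to 5793 with 1 replicate left out, against 5864. In HYP vs. WT they numbered 1863 (without HYP replicate 5) to 3138, against 2805. In PCC vs. HYP they numbered 326 to 1648, against 1227: 567 and 668 without PCC replicates 2 and 3, and 639, 362, 326 and 541 without HYP replicates 2 to 5. In the same comparison DESeq2 called 2177 and adjustment over the table alone 3039. Same-numbered libraries deviated together only weakly, with correlations from -0.14 to 0.22, so the numbers were not taken to pair animals. A replicate block gave 277 calls in PCC vs. HYP, the other counts staying within 1.5 times. Under scaling to the listed total the share of calls that were higher moved from 54.8 to 76.6% (PCC vs. WT), 55.5 to 89.6% (HYP vs. WT) and 50.4 to 69.6% (PCC vs. HYP), and in the last to 36.0% with DESeq2 and 61.4% with the authors' size factors. The cause was not tested.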
